A study of Mus musculus with 26 samples.

Results

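Ribosome footprints of NIH3T3 cells after 7 h of osmotic stress by KCl were compared directly with footprints after 2 h, to ask which ribosome-bound mRNAs change between early and late osmotic stress. Every gene of the footprint table was a member of the comparison, and 10545 of its 19941 gene rows had enough counts to be tested. NIH3T3 is an established line of mouse embryonic fibroblasts. In ribosome profiling the mRNA fragments that ribosomes protect from nuclease (footprints) are sequenced, so a gene's footprint count reflects the ribosomes on its mRNA. The groups used here were untreated control cells, cells in KCl for 2 h or 7 h, and cells in H2O2, an oxidative stress, for 2 h or 7 h, each with 2 footprint and 2 RNA libraries. All were the same cell line with no genetic change named, and the KCl and H2O2 groups share the control. The sources used here give neither the KCl concentration nor whether the 2 replicates of a group were separate cultures, so p-values measure the spread between these libraries, which may be technical.

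The 4 KCl footprint libraries held 2884344 to 3775978 counts, and the 10 footprint libraries 1460751 to 5168537, the lowest being H2O2 2 h replicate 1. The replicates of each footprint group correlated with Pearson's r of 0.957 to 0.978 (log2 levels across genes, which are not independent). The libraries had the markers of fibroblasts: all 10 on the list were tested, with a summed level of 24870 to 27290 counts per 1000000 (CPM) at 2 h and 20300 to 24720 CPM at 7 h. Summed markers of epithelial cells were 26.4 to 58.6 CPM over the 4 KCl libraries, and those of immune, endothelial, muscle and neural cells 2.55 to 27.8 CPM. Ptprc, Cd3e, Pecam1 and Myod1 were at 0 in all 4. Most of these sums came from Krt18 (21.0 to 25.9 CPM) and Cldn4 (1.74 to 30.1) for epithelial cells. In the other types it was Kdr (endothelial, 7.38 to 26.3), Tubb3 (neural, 9.36 to 20.5), Acta1 (muscle, 7.66 to 14.3) and Cd68 (immune, 2.55 to 7.04).

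When the salt outside a cell rises, the cell shrinks, ions enter, and over hours the ions are exchanged for small organic osmolytes that do not disturb proteins. The transcription factor NFAT5 (TonEBP) drives this later phase by binding TonE sites near genes for osmolyte transporters and for aldose reductase, the enzyme that makes sorbitol. Immediate early genes, such as Fos, Egr1 and Nr4a1, are switched on without new protein synthesis by MAP kinases acting through SRF, which binds CArG boxes, and CREB, which binds cAMP response elements (CRE). Their mRNAs and proteins are short-lived.

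Sequences before the annotated start are shown for 5 genes, with the matched motif in capitals. They are examples picked among genes called between the times whose window held a match. They come from RefSeq promoter windows on GRCm38.p6 (the assembly of mm10, which the submitters' processing notes name), each from 250 bases before to 50 bases after the start. Windows were matched for 13 of the 17 tested osmotic response genes and 20 of the 27 tested immediate early genes.
Slc6a12, TonE, chr6:121342474-121342534, plus strand: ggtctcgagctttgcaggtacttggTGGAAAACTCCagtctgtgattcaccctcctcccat
Zfp36, CArG box, chr7:28379252-28379311, minus strand: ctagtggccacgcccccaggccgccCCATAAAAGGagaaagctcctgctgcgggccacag
Maff, CRE, chr15:79347466-79347519, plus strand: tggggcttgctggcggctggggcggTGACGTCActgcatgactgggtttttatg
Fos, CRE core, chr12:85473799-85473853, plus strand: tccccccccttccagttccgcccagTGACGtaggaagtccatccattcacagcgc
Nr4a1, CRE core on the opposite strand, chr15:101266781-101266835, plus strand: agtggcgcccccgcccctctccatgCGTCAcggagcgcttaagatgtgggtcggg

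These motifs lie 75 bases before the start for Slc6a12, the betaine transporter, 58 for Zfp36, 29 for Maff, 66 for Fos and 40 for Nr4a1. Motifs were searched on both strands as the TonE consensus, the CArG box, the full CRE (TGACGTCA) and its core (TGACG), which every full CRE contains. A TonE match was in the windows of 2 of the 13 osmotic response genes (15.4%), Slc6a12 and Stk39, and of 2 of the 20 immediate early genes, against 3.92% of the 8221 tested genes with a window. A CArG box was in 3 of the 20 immediate early genes (15%), Egr2, Zfp36 and Srf, against 1.36%. A CRE core was in 12 of the 20 (60.0%), Fos and Nr4a1 among them, and in 7 of the 13 osmotic response genes (53.8%), against 31.8%. The full CRE was in 2 of the 20 and in 2 of the 13 (15.4%), against 3.09%. Genes not called between the times held matches too: Stk39 (TonE), Srf (CArG box), Btg2 and Oxsr1 (full CRE), and Nr4a2, Klf2 and Klf4 (CRE core). Of all genes called in the test below, 986 called higher and 690 called lower at 7 h had a window. A CRE core was in 31.3% of the higher and 32.3% of the lower genes, both near the 31.8% of tested genes. The CArG box was in 0.811% and 1.3%, and the full CRE in 2.74% and 3.48%. TonE was in 5.38% of the higher genes, and its share of the lower genes lay between this and 3.92%. The CArG box of Egr2 in the most upstream of its annotated windows shares bases with a TonE match, and the lower case part of the Slc6a12 stretch holds an AP-1 match (TGANTCA). These are matches of letters in a short window and no measure of binding.

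Of the 10545 genes tested, 2170 (20.6%) differed between 7 h and 2 h at an adjusted p below 0.05, 1281 of them higher at 7 h (12.1%) and 889 lower (8.43%), by edgeR's quasi-likelihood test with Benjamini-Hochberg adjustment. Among called genes the median log2 fold change was 1.19 for those higher and -1.17 for those lower, and over all genes tested it was 0.02. A log2 fold change of at least 1 in size was reached by 833 and 600 of them. The called genes covered the range of footprint levels (median average log2 CPM 4.94, against 4.79 over all genes). In 61.7% of tested genes the 2 libraries of one time both lay above the 2 of the other, so non-overlap alone is common here. It held for 1280 of the 1281 higher and 888 of the 889 lower genes. The exceptions were H2-L, a histocompatibility gene, at 0 and 0 CPM at 2 h and 210 and 0 CPM at 7 h, and the histone gene Hist1h2bl, at 0 and 213 CPM at 2 h and 6.39 and 0 CPM at 7 h. Both belong to families of near-identical copies among which reads cannot be placed with certainty. Fewer calls were made with 1 library left out: 1322 without 2 h replicate 1, 845 without 2 h replicate 2, 926 without 7 h replicate 1 and 1182 without 7 h replicate 2. Values are relative to the libraries' TMM scaling, so a change in the total amount of translation is not measured, and fewer cells translating an mRNA and fewer ribosomes on it per cell cannot be told apart.

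**Figure D1:**
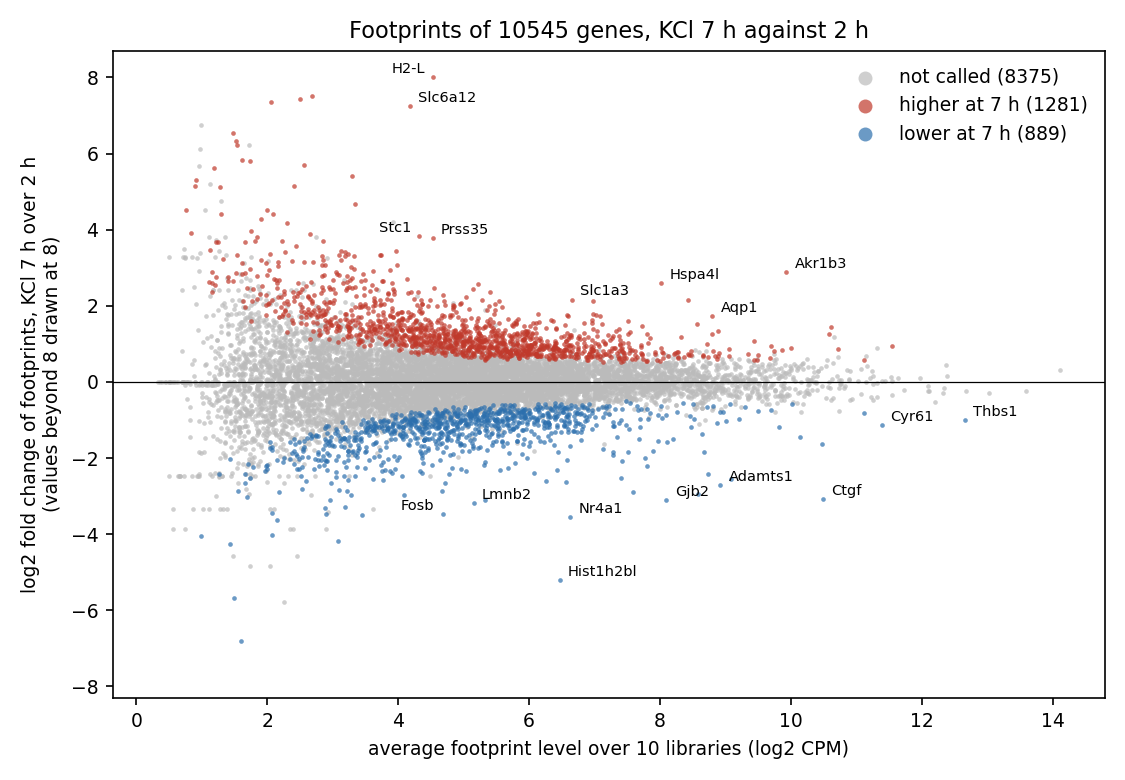
Log2 fold change of footprints (KCl 7 h over 2 h, vertical axis) against the average level over 10 footprint libraries (log2 CPM, horizontal axis), 1 point per gene, coloured by call at an adjusted p below 0.05, with values beyond 8 drawn at 8. The 1281 genes called higher and 889 called lower spread over the whole range of levels, with Slc6a12 at 7.25 and Ctgf at -3.09 far from 0 at their levels.

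Genes of osmolyte accumulation had the highest median of the 31 gene lists. Of 17 tested osmotic response genes, 12 were called higher at 7 h and 0 lower, with a median log2 fold change of 0.98, against 12.1% called higher and a median of 0.02 over all genes. The list was written with earlier results of these data known, and its size is a description. Footprints of Slc6a12, which imports betaine, stood at 1.01 and 0 CPM at 2 h and 109 and 59.3 CPM at 7 h, with 0.245 and 0 CPM in the control. Both 7 h libraries lay far above the control and 2 h libraries. The 2 h libraries held 3 counts and the 7 h libraries 498, a ratio of 157 (95% exact interval 53.5 to 765, counting error only). The fitted log2 fold change was 7.25 ± 1.0 (edgeR, Benjamini-Hochberg adjusted p = 4.57e-05). It ran from 6.33 to 11.1 with 1 KCl library left out, and on so few counts at 2 h it is no bound. Among the control and KCl libraries, only those of 7 h were high enough for the low-count filter and the level for naming.

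Akr1b3 encodes aldose reductase. Its footprints were at 258 and 146 CPM in the control, 550.1 and 496 CPM at 2 h and 3830.4 and 3853 CPM at 7 h. The levels were stepwise, with 2 h above the control and 7 h well above 2 h, and the duplicates were close. The log2 fold change between the times was 2.88 ± 0.25 (standard error of the fit, as throughout; edgeR, Benjamini-Hochberg adjusted p = 8.05e-05). Hspa4l, an HSP110-type chaperone known to be induced by hypertonicity, stood at 158 and 141 CPM at 2 h and 864 and 935 CPM at 7 h, with a log2 fold change of 2.59 ± 0.18 (edgeR, Benjamini-Hochberg adjusted p = 3.20e-05). The control libraries were at 121 and 99.2 CPM, below both times.

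The sodium/myo-inositol cotransporter gene Slc5a3 was at 175 and 117 CPM at 2 h and 419 and 389 CPM at 7 h, and its 2 h libraries lay on both sides of the control libraries (142 and 143 CPM). The log2 fold change was 1.47 ± 0.21 (edgeR, Benjamini-Hochberg adjusted p = 0.000882). The taurine transporter gene Slc6a6 stood at 638 and 645 CPM at 2 h and 1439 and 1242 CPM at 7 h (log2 fold change 1.06 ± 0.19). All 3 osmolyte importers thus rose between 2 h and 7 h. At 2 h against the control, where 723 genes were called (6.86%), 534 of them lower (5.06%), none of these 3 passed the test, with fitted log2 values of 0.04 for Slc5a3 and 0.38 for Slc6a6. At 7 h against the control 2148 genes were called (20.4%), 1037 of them lower (9.83%). These comparisons share the KCl libraries with the one between the times. Slc6a9, a glycine transporter, was at 52.7 and 34.4 CPM at 2 h and 159 and 98.1 CPM at 7 h (log2 fold change 1.55 ± 0.31).

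Water, ion and volume genes of the list followed. Aqp1, a water channel, was at 349.5 and 302 CPM at 2 h and 1152 and 1025 CPM at 7 h, with a log2 fold change of 1.74 ± 0.20 (edgeR, Benjamini-Hochberg adjusted p = 0.000276). Lrrc8a, a subunit of the volume-regulated anion channel, had a different course: 144 and 124 CPM in the control, 48.6 and 45.5 CPM at 2 h and 135 and 79.1 CPM at 7 h. Its fold change of 1.18 ± 0.25 thus brought it back toward the control level. The sodium-potassium-chloride cotransporter gene Slc12a2 (0.79 ± 0.23) and the glucose transporter gene Slc2a1 (0.93 ± 0.19) were also called higher. Nfat5 itself was at 108 and 113 CPM in the control, 289 and 199 CPM at 2 h and 413 and 547 CPM at 7 h, and its log2 fold change between the times was 0.98 ± 0.25 (edgeR, Benjamini-Hochberg adjusted p = 0.0154).

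Of the 12 called, Slc6a12, Akr1b3, Hspa4l, Aqp1, Slc5a3 and Slc6a6 were still called without any 1 of the 4 KCl libraries. The other 6 were not. Nfat5 lost its call without 2 h replicate 2 (log2 fold change 0.73) or 7 h replicate 2 (0.76). Slc2a1 (0.89 and 0.81), Lrrc8a (1.13 and 0.75) and Slc6a9 (1.28 and 1.17) lost it without 2 h replicate 2 or 7 h replicate 1. Slc12a2 lost it whichever library was left out, with log2 fold changes of 0.63 to 0.93.

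The 5 tested members that were not called include Slc38a2, the amino acid transporter SNAT2. Its footprints were at 575 and 648 CPM in the control, 3650.4 and 3198 CPM at 2 h and 3890.5 and 3210.4 CPM at 7 h. It was thus already high at 2 h, and the times overlapped (log2 fold change 0.05 ± 0.19). Sgk1, a kinase that regulates ion transport, was at 646 and 635 CPM at 2 h and 561 and 674 CPM at 7 h, and Wnk1, a chloride- and volume-sensing kinase, at 115 and 119.6 CPM at 2 h and 136 and 132 CPM at 7 h. The kinase genes Oxsr1 (0.72 ± 0.25) and Stk39 (0.46 ± 0.40), which act below WNK kinases, were not called either. Oxsr1 was called without 2 h replicate 2, at a log2 fold change of 1.07. Ranbp3l, on the list but too low to be tested, had 0 and 0 counts at 2 h and 4 and 6 at 7 h.

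**Figure D2:**
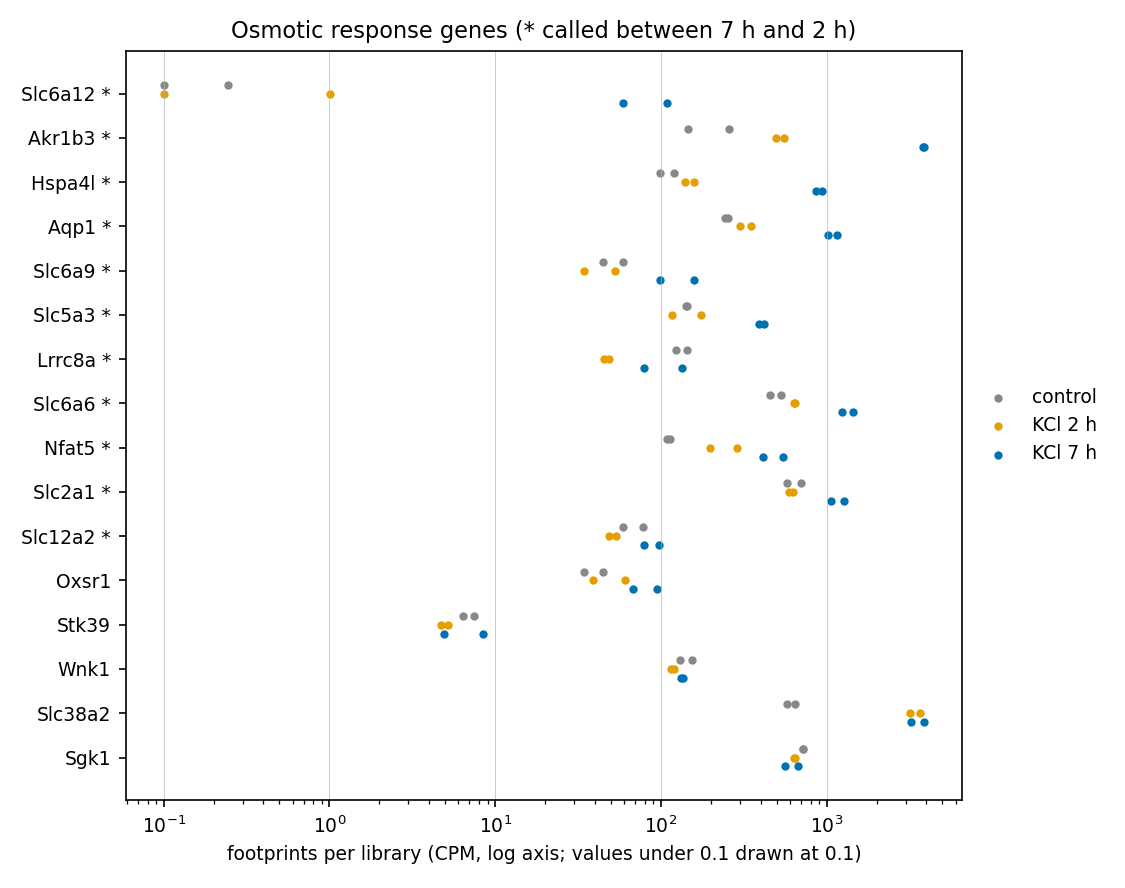
Footprints of 16 tested osmotic response genes in each control, KCl 2 h and KCl 7 h library (CPM, log axis, 1 point per library), ordered by fold change, with an asterisk on the 11 called between 7 h and 2 h. Slc6a12, Akr1b3, Hspa4l and Aqp1 separate most at 7 h, while Slc38a2 is already at 3650.4 and 3198 CPM at 2 h.

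Immediate early genes went the other way. Of 27 tested, 18 were called lower at 7 h and 0 higher, with a median log2 fold change of -1.83, against 8.43% called lower over all genes. The largest fall was that of Nr4a1, an orphan nuclear receptor, with 48.4 and 89 CPM in the control, 165 and 119 CPM at 2 h and 11.3 and 12.8 CPM at 7 h. It was higher at 2 h than in the control and lower than the control at 7 h. The log2 fold change between the times was -3.55 ± 0.32 (edgeR, Benjamini-Hochberg adjusted p = 8.05e-05). Fosb, a subunit of the AP-1 transcription factor, was at 20.8 and 19.1 CPM at 2 h and 1.5 and 1.99 CPM at 7 h (log2 fold change -3.47 ± 0.44, edgeR, Benjamini-Hochberg adjusted p = 0.000223).

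Fos stood at 10.5 and 6.59 CPM in the control, 55.7 and 41.7 CPM at 2 h and 6.01 and 5.39 CPM at 7 h, so its 7 h libraries lay below its control libraries and 2 h above both. Its log2 fold change was -3.09 ± 0.37 (edgeR, Benjamini-Hochberg adjusted p = 0.00024). Egr1, a zinc finger activator, was at 194 and 166 CPM at 2 h and 34.2 and 13.3 CPM at 7 h (log2 fold change -2.95 ± 0.34). Its control libraries were at 161 and 99.7 CPM, so 7 h lay below the control and 2 h a little above it. Junb, another AP-1 subunit, was at 553 and 438 CPM at 2 h and 96.2 and 72.9 CPM at 7 h, with 207 and 243 CPM in the control (log2 fold change -2.55 ± 0.24).

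The remaining called members covered AP-1, growth control and mRNA decay. Fosl1 (-2.54 ± 0.26), Jun (-1.77 ± 0.22) and Atf3 (-2.31 ± 0.44) encode AP-1 or related bZIP proteins, and Maff (-1.31 ± 0.23) a small MAF protein. Myc, the growth regulator, was at 591 and 357 CPM at 2 h and 164 and 103 CPM at 7 h (log2 fold change -1.83 ± 0.26). Zfp36 encodes tristetraprolin, which destabilizes mRNAs with AU-rich elements, and was at 40.9 and 42.1 CPM at 2 h and 16.2 and 10.8 CPM at 7 h (log2 fold change -1.64 ± 0.30). Ier2 (-2.61 ± 0.31), Ier5 (-2.07 ± 0.26), Ier5l (-1.58 ± 0.25), Klf6 (-1.57 ± 0.19), Klf10 (-1.30 ± 0.22), Arc (-2.11 ± 0.33) and Egr2 (-2.90 ± 1.12) were the others. Egr2 rests on 23 counts at 2 h and 3 at 7 h, and it lost its call without 2 h replicate 1 (-2.73), 2 h replicate 2 (-3.06) or 7 h replicate 2 (-1.77). The other 17 were called without any 1 of the 4 KCl libraries.

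Not every immediate early gene fell. Ier3, an early gene linked to cell survival, was at 127 and 134 CPM in the control, 459 and 458 CPM at 2 h and 491 and 376 CPM at 7 h, so its level at both times was above the control. The nuclear receptor gene Nr4a2 was at 2.69 and 3.85 CPM in the control, 9.73 and 14.9 CPM at 2 h and 13.5 and 13 CPM at 7 h, while Nr4a1 of the same family fell. Fosl2 (-0.35), Jund (0.15), Klf4 (-0.10), Btg2 (-0.60) and Srf (0.54) were not called, with the log2 fold changes given. Egr3 and Klf2 had large fitted values, -3.43 and -2.65, on low counts (33 against 3 for Egr3), and missed the threshold (0.0548 and 0.0669, edgeR with Benjamini-Hochberg adjusted p). Egr3 was called without 2 h replicate 2, at -4.06. Nr4a3 was too low to be tested.

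**Figure D3:**
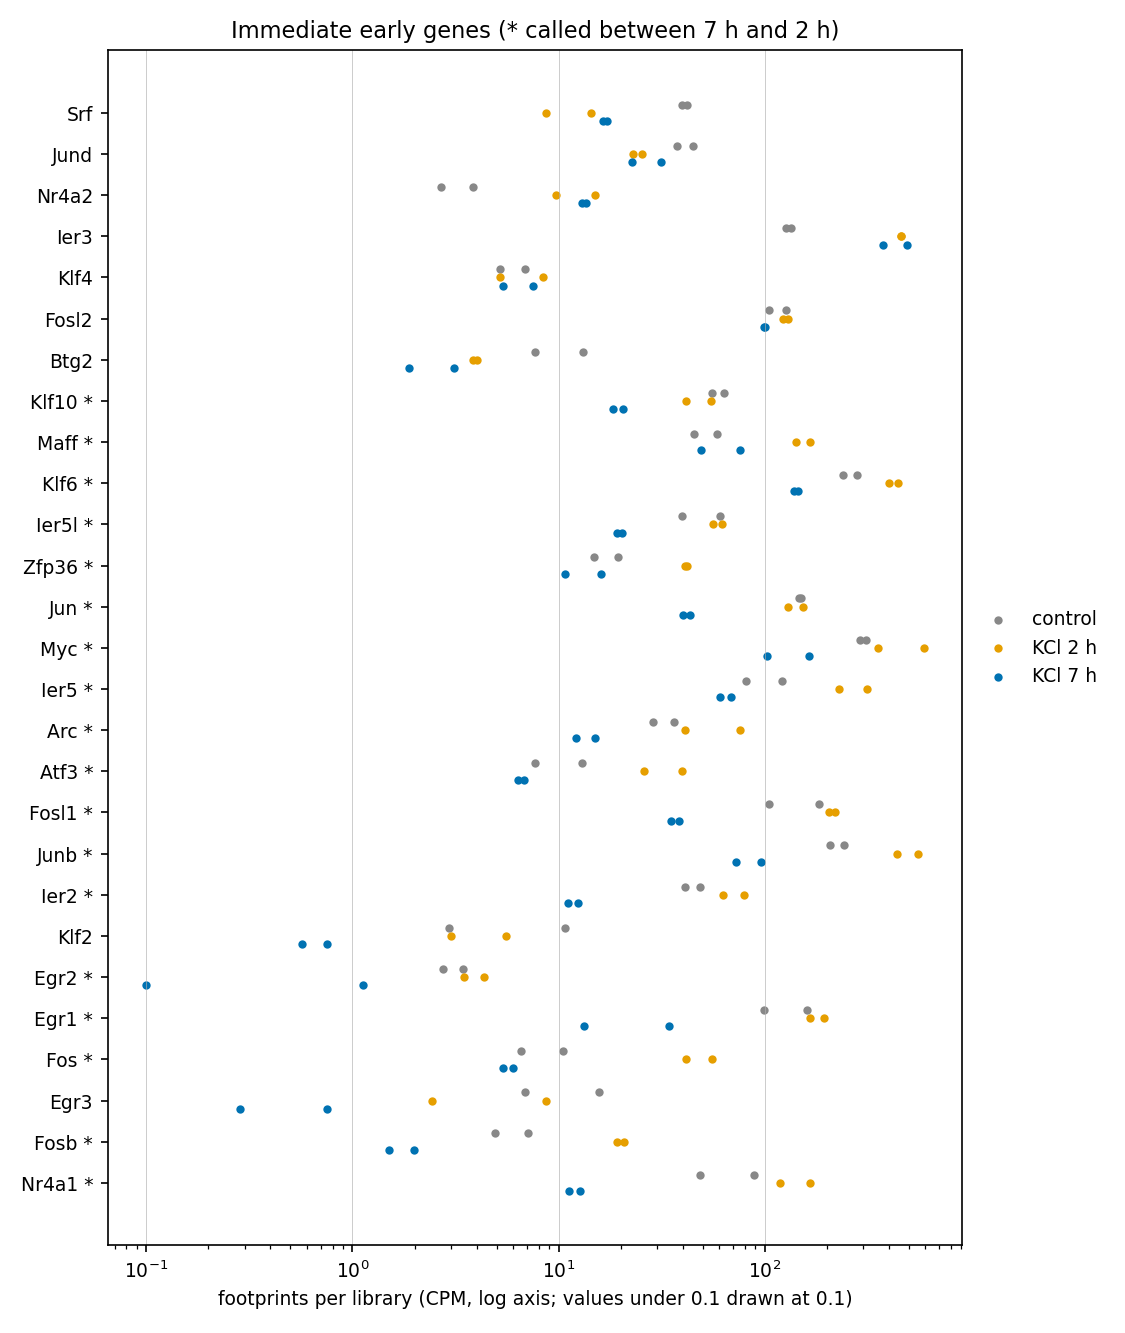
Footprints of the 27 tested immediate early genes in each control, KCl 2 h and KCl 7 h library (CPM, log axis, 1 point per library), ordered by fold change, with an asterisk on the 18 called between 7 h and 2 h. In the called genes both 7 h libraries lie to the left of both 2 h libraries, while Ier3 and Nr4a2 stay to the right of the control at both times.

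Of 14 tested feedback inhibitors of MAP kinase signalling, 6 were called lower and 0 higher (8.43% and 12.1% of all genes), with a median log2 fold change of -0.58. Dusp6, a phosphatase of ERK, was at 136 and 75.1 CPM at 2 h and 22.2 and 17.9 CPM at 7 h (log2 fold change -2.40 ± 0.41, edgeR, Benjamini-Hochberg adjusted p = 0.00221). Dusp5, a nuclear ERK phosphatase, was at 60.7 and 35.8 CPM at 2 h and 9.77 and 9.64 CPM at 7 h (-2.31 ± 0.33), and Errfi1, an inhibitor of EGF receptors, at 272 and 147 CPM at 2 h and 52.6 and 38.9 CPM at 7 h (-2.20 ± 0.31). Their times did not overlap. Spry4 (-2.07 ± 0.57), Spry2 (-1.24 ± 0.39) and Dusp4 (-1.03 ± 0.32) were also called, but each lost its call without 2 h replicate 1, at -1.51, -0.47 and -0.65. Spry4 also lost it without 7 h replicate 2 (-1.53), Spry2 without 7 h replicate 1 (-1.29) or 2 (-1.17), and Dusp4 likewise (-1.06 and -1.01). Dusp1, which acts on stress kinases, was above the control at both times (222 and 194 CPM at 2 h and 159 and 125 CPM at 7 h, with 36.4 and 44.2 CPM in the control) and was not called between them.

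Of 21 tested secreted growth factor and hormone genes, 2 were called higher and 5 lower, against 12.1% and 8.43% of all genes. Stc1, the hormone stanniocalcin 1, was at 8.05 and 3.13 CPM at 2 h and 88.7 and 72.6 CPM at 7 h, with a log2 fold change of 3.83 ± 0.60 (edgeR, Benjamini-Hochberg adjusted p = 0.00123). Igfbp3, a binding protein of insulin-like growth factors, was at 6.71 and 5.56 CPM at 2 h and 31.2 and 19.9 CPM at 7 h (2.04 ± 0.44), and lost its call without 2 h replicate 2 (1.91) or 7 h replicate 1 (1.69). Hbegf, an EGF receptor ligand, was at 261 and 159 CPM at 2 h and 36.8 and 20.7 CPM at 7 h, with a log2 fold change of -2.88 ± 0.34 (edgeR, Benjamini-Hochberg adjusted p = 0.000312). The neurotrophin gene Bdnf (-1.42 ± 0.24) fell too. Pdgfb, a platelet-derived growth factor, rested on 21 counts at 2 h and 1 at 7 h, a ratio of 0.045 (95% exact interval 0.00109 to 0.28, counting error only). Its call was lost without 2 h replicate 1 (-3.16), 7 h replicate 1 (-3.5) or 7 h replicate 2 (-6.58).

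Of 20 tested chemokine, cytokine and NF-kB feedback genes, 5 were called lower and 1 higher, beside 8.43% and 12.1% of all genes. Csf1, the macrophage growth factor, was at 419 and 479.8 CPM at 2 h and 226 and 203 CPM at 7 h (log2 fold change -1.07 ± 0.18, edgeR, Benjamini-Hochberg adjusted p = 0.00231). Ptgs2, the inducible cyclooxygenase, was at 4183 and 3535 CPM at 2 h and 2134 and 2284 CPM at 7 h (-0.80 ± 0.23), and the chemokine gene Cxcl1 at 33.5 and 51.5 CPM at 2 h and 16.5 and 8.23 CPM at 7 h (-1.81 ± 0.37). Cxcl10 (-1.47 ± 0.39) and Tnfaip3 (-1.30 ± 0.28), which encodes the NF-kB inhibitor A20, were lower as well. The chemokine gene Cxcl5 was the 1 higher member, at 88.2 and 87.6 CPM at 2 h and 185 and 161 CPM at 7 h (0.97 ± 0.22). Each but Csf1 lost its call without at least 1 library: Ptgs2 without any 1 of the 4 (-0.68 to -0.92), and Cxcl1 without 7 h replicate 2 (-1.36). Tnfaip3 lost it without 2 h replicate 2 (-1.05) or 7 h replicate 1 (-1.19), as did Cxcl5 (0.97 and 0.87), and Cxcl10 without 2 h replicate 1 (-1.34), 7 h replicate 1 (-1.76) or 2 (-1.19).

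Targets of YAP and SRF respond to the state of the actin cytoskeleton. Of 28 tested, 6 were called lower and 1 higher, while 8.43% and 12.1% of all genes were. Ctgf, a matricellular growth regulator and a standard YAP target, was at 1757 and 1651 CPM in the control, 2298 and 1953 CPM at 2 h and 311 and 190.3 CPM at 7 h. Its log2 fold change was -3.09 ± 0.22 (edgeR, Benjamini-Hochberg adjusted p = 3.20e-05), and both 7 h libraries lay far under the other 4. Cyr61, its close relative, was at 4264 and 3633 CPM at 2 h and 2115 and 1456 CPM at 7 h, with 1980.4 and 1961 CPM in the control (log2 fold change -1.15 ± 0.21). Ankrd1 (-1.69 ± 0.19) and Amotl2 (-1.51 ± 0.24), both YAP targets, fell as well. Tgfb1i1, a focal adhesion protein, was lower as well (-1.52 ± 0.31), and lost its call without 2 h replicate 2 (-1.11) or 7 h replicate 1 (-1.38).

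Adamts1, a secreted protease that cleaves proteoglycans, was at 199 and 328 CPM in the control, 1095 and 1318 CPM at 2 h and 189 and 178 CPM at 7 h. The 2 h libraries stood alone above the rest (log2 fold change -2.72 ± 0.24, edgeR, Benjamini-Hochberg adjusted p = 9.75e-05). Plat, the tissue plasminogen activator, was at 410.3 and 209 CPM at 2 h and 1096 and 677 CPM at 7 h (1.52 ± 0.35). The call of Plat was lost without 2 h replicate 2 (1.11) or 7 h replicate 1 (1.13). Thbs1, thrombospondin 1, was at 11738 and 9794 CPM at 2 h and 5951 and 4786 CPM at 7 h (-1.0 ± 0.18). It was the 1 called of 31 tested collagens and matrix proteins, while 20.6% of all genes were called.

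Other genes with the largest changes had varied roles. Prss35, a serine protease-like protein, was at 9.06 and 4.17 CPM at 2 h and 77.4 and 106 CPM at 7 h (log2 fold change 3.78 ± 0.38, edgeR, Benjamini-Hochberg adjusted p = 0.00012). Ccnt2, a cyclin of the elongation kinase P-TEFb, was at 5.03 and 4.17 CPM at 2 h and 26.7 and 33.8 CPM at 7 h (2.71 ± 0.36), and Prkd1, protein kinase D1, at 18.8 and 18.4 CPM at 2 h and 109 and 92.8 CPM at 7 h (2.43 ± 0.25). Slc8b1, the mitochondrial sodium/calcium exchanger, was at 12.1 and 12.2 CPM at 2 h and 68.4 and 67.2 CPM at 7 h (2.48 ± 0.28). The zinc finger genes Zfp292 (2.36 ± 0.25), Zkscan1 (2.36 ± 0.39) and Zfp319 (2.35 ± 0.30) completed the 12 largest rises among genes with a mean log2 CPM from 4 upward. In Zkscan1 and Zfp319 the 2 h libraries were below the control, with fitted log2 values of -2.07 and -1.70.

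Among the largest falls, Lmnb2, a nuclear lamin, was at 42.3 and 48.3 CPM at 2 h and 3.01 and 6.52 CPM at 7 h, with a log2 fold change of -3.19 ± 0.33 (edgeR, Benjamini-Hochberg adjusted p = 0.00012), with 2 h near the control (35.5 and 46.2 CPM). Gjb2, the gap junction protein connexin 26, was at 580.1 and 473 CPM in the control, 95.3 and 148 CPM at 2 h and 12 and 15.9 CPM at 7 h. It thus fell in 2 steps, and the later one was -3.11 ± 0.41. Dph1, an enzyme of diphthamide synthesis, was at 17.4 and 20.9 CPM at 2 h and 2.25 and 2.55 CPM at 7 h (-2.96 ± 0.45), and Hes1, a Notch target and transcriptional repressor, at 33.9 and 50.1 CPM at 2 h and 6.39 and 5.11 CPM at 7 h (-2.87 ± 0.35). Slc37a2, a sugar-phosphate exchanger, rested on 19 counts at 2 h and 3 at 7 h (-2.65 ± 0.70) and lost its call without 2 h replicate 2 (-2.38). It met the level for being named through its H2O2 7 h libraries (122 and 107 CPM).

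Of 16 tested amino acid transporters, 6 were called higher, 1 lower and 9 not, against 12.1% and 8.43% of all genes called. The median log2 fold change was 0.26, but 0.46 without 2 h replicate 1, 0.07 without 7 h replicate 1 and 0.49 without 7 h replicate 2. Of the 6, 2 (Slc6a6 and Slc6a9) were also on the osmotic list. Slc1a3, a glutamate and aspartate transporter, was at 32.8 and 26.4 CPM in the control, 88.6 and 66.1 CPM at 2 h and 370.1 and 323 CPM at 7 h. The fold change between the times was 2.16 ± 0.20 (edgeR, Benjamini-Hochberg adjusted p = 8.95e-05). Slc36a1, a lysosomal amino acid exporter, was at 8.05 and 8.00 CPM at 2 h and 41.7 and 31.2 CPM at 7 h (2.17 ± 0.37). Slc7a6 (1.01 ± 0.18) and Slc38a4 (0.90 ± 0.23) were higher, and Slc1a5, a glutamine transporter, was lower (-1.05 ± 0.21). Slc38a4 lost its call without 2 h replicate 2 (0.64) or 7 h replicate 1 (0.69), and Slc1a5 without 7 h replicate 2 (-0.83).

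ATF4 is the factor whose translation rises when eIF2α is phosphorylated. The list of its stress response, which includes Atf4 itself, had 3 of 20 called higher and 3 lower, against 12.1% and 8.43% of all genes. Chac1, which degrades glutathione, was at 7.38 and 4.87 CPM at 2 h and 46.6 and 27.5 CPM at 7 h (log2 fold change 2.57 ± 0.45, edgeR, Benjamini-Hochberg adjusted p = 0.00211), and Nupr1, a stress-induced chromatin protein, at 37.6 and 28.5 CPM at 2 h and 67.3 and 132 CPM at 7 h (1.59 ± 0.30). Trib3 was at 8.05 and 5.21 CPM at 2 h and 19.5 and 12.2 CPM at 7 h (1.23 ± 0.35) and lost its call without 2 h replicate 2 (0.96) or 7 h replicate 1 (0.87). Atf4 itself was at 43 and 48.9 CPM in the control, 87.2 and 81.7 CPM at 2 h and 50.0 and 34 CPM at 7 h (-1.02 ± 0.23), and lost its call without 7 h replicate 2 (-0.76). Atf3, also counted among the immediate early genes, and Ppp1r15a, which brings a phosphatase to eIF2α, were lower at 7 h. Ppp1r15a was at 4.89 and 5.5 CPM in the control, 17.1 and 25 CPM at 2 h and 6.01 and 3.4 CPM at 7 h (-2.19 ± 0.43). Atf4 and Ppp1r15a were thus high at 2 h and back near the control at 7 h, while Nupr1 (16.9 and 11.3 CPM in the control) was above the control at both times.

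Of 23 tested HSF1 chaperones, 4 were called higher and 2 lower, near the 12.1% and 8.43% of all genes. The HSP110 gene Hsph1 was at 426 and 489 CPM at 2 h and 1038 and 1291 CPM at 7 h (log2 fold change 1.35 ± 0.19, edgeR, Benjamini-Hochberg adjusted p = 0.000984), beside its relative Hspa4l. Hspa1b, an inducible HSP70 gene with a near-identical copy that may share its reads, was above the control at both times and not called between them. It was at 101 and 146 CPM in the control and 890.3 and 915 CPM at 2 h and 1289 and 1251 CPM at 7 h. The small heat shock protein gene Hspb8 was at 32.9 and 61.9 CPM at 2 h and 12 and 17.3 CPM at 7 h (-1.67 ± 0.38) and lost its call without 2 h replicate 2 (-1.15) or 7 h replicate 1 (-1.45). Hspa8, the constitutive HSP70, was at 7327 and 8567 CPM at 2 h and 5188 and 5793 CPM at 7 h and just missed the threshold (edgeR, Benjamini-Hochberg adjusted p = 0.0553), while DESeq2 called it.

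Of 21 tested glycolytic genes, 4 were called higher and 0 lower (12.1% and 8.43% of all genes), with a median log2 fold change of 0.31, which was 0.47 without 2 h replicate 2. The glucose transporter gene Slc2a1, counted among these 4, was also on the osmotic list. Pfkp, a phosphofructokinase, was at 37.2 and 29.6 CPM at 2 h and 114 and 115 CPM at 7 h (log2 fold change 1.78 ± 0.20, edgeR, Benjamini-Hochberg adjusted p = 0.000276). Pfkfb3, which makes the activator of phosphofructokinase, was at 9.39 and 9.04 CPM at 2 h and 32.7 and 31.2 CPM at 7 h (1.79 ± 0.31). Ldha, lactate dehydrogenase A, was at 2182 and 2321 CPM at 2 h and 3577 and 3182 CPM at 7 h (0.59 ± 0.19) and lost its call without any 1 of the 4 libraries (0.50 to 0.67). Pkm, pyruvate kinase, was at 5851 and 5978 CPM at 2 h and 8556 and 7662 CPM at 7 h and was not called (0.46 ± 0.18).

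Cytosolic ribosomal protein genes had small values on one side of 0. Of 78 tested, 77 had a fold change below 0, with a median log2 value of -0.38 and quartiles of -0.53 and -0.29. The median was -0.20 without 2 h replicate 2 and -0.57 without 2 h replicate 1. Only 8 passed the test, all lower, against 8.43% of all genes, so the share called is near the background. Their RNA had a median log2 fold change of -0.08, and their ratio of footprints to RNA one of -0.28. Rps19 was at 743 and 1064 CPM at 2 h and 530.1 and 528 CPM at 7 h (-0.77 ± 0.21), Rpl28 at 525 and 699.8 CPM at 2 h and 291 and 419 CPM at 7 h (-0.79 ± 0.22) and Rps27 at 26.8 and 37.5 CPM at 2 h and 13.9 and 11.1 CPM at 7 h (-1.37 ± 0.46). These 3 lost their calls without 2 h replicate 2 (-0.49, -0.56 and -1.11) or 7 h replicate 1 (-0.78, -0.55 and -1.54). Rps19 did so also without 7 h replicate 2 (-0.77), and Rps27 without 2 h replicate 1 (-1.60) or 7 h replicate 2 (-1.21). Rpl7a (2523 and 3816 CPM at 2 h and 2136 and 2698 CPM at 7 h) and Rpl8 (2332 and 2924 CPM at 2 h and 2017 and 2228 CPM at 7 h) were not called. Ribosomal protein genes have many near-identical pseudogenes, so how their reads were divided is uncertain.

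These mRNAs are known for a 5′ terminal oligopyrimidine (TOP) tract, which begins at the first base with a C and ties their translation to growth signals. The first 15 transcribed bases are shown for 4 of them, with the pyrimidine run in capitals. They are examples picked because their annotated start has such a tract, and Rps6 and Rpl15 were not called.
Rpl28, chr7:4792965-4792979, plus strand: CTCTTTCCgtctccg
Rps27, chr3:90213634-90213648, minus strand: CCTTTCCggcggtga
Rps6, chr4:86857353-86857367, minus strand: CTCTTTTTCgtgacg
Rpl15, chr14:18270972-18270986, minus strand: CTTCCTTTCCTCTgg

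Of 57 ribosomal protein genes with a window, 14 (24.6%) had an annotated start with a C followed by at least 4 pyrimidines, against 3.04% of tested genes. Annotated starts are often a few bases off, so this share depends on the annotation. Pabpc1, the poly(A)-binding protein and itself known as a TOP mRNA, did not follow the group. It was at 773 and 771 CPM in the control, 300.2 and 255 CPM at 2 h and 656 and 663 CPM at 7 h, with a log2 fold change of 1.25 ± 0.22 (edgeR, Benjamini-Hochberg adjusted p = 0.00264). It was the 1 higher of 35 tested translation factors (12.1% of all genes were higher and 8.43% lower), low at 2 h and near the control at 7 h. The 1 lower was Eif1a, an initiation factor (-0.71 ± 0.21), whose call was lost without 2 h replicate 1 (-0.79), 2 h replicate 2 (-0.63) or 7 h replicate 1 (-0.51). Eef2, elongation factor 2, was at 5067 and 5982 CPM at 2 h and 4687 and 4732 CPM at 7 h.

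Of 38 DNA replication genes tested, 9 were called lower and 4 higher (8.43% and 12.1% of all genes), with a median log2 fold change of -0.28. Prim1, a primase subunit, was at 86.2 and 85.2 CPM at 2 h and 34.6 and 39.1 CPM at 7 h (log2 fold change -1.21 ± 0.19, edgeR, Benjamini-Hochberg adjusted p = 0.00138), and Tk1, thymidine kinase, at 205 and 212 CPM at 2 h and 99.6 and 86.8 CPM at 7 h (-1.16 ± 0.21). Rrm2, a subunit of ribonucleotide reductase, was lower (-1.03 ± 0.23), a call lost without 2 h replicate 2 (-0.74) or 7 h replicate 1 (-0.88), while the replication helicase gene Gins3 was higher (1.89 ± 0.46). The call of Gins3 was lost without 2 h replicate 1 (1.78), 2 h replicate 2 (2.00) or 7 h replicate 2 (1.62). Of 38 mitosis genes, 5 were called higher, a share near the 12.1% of all genes, and 1 lower. Their median of 0.26 was 0.06 without 7 h replicate 2 and 0.41 without 7 h replicate 1. Sgol1, which protects centromeric cohesin, was at 7.04 and 11.1 CPM at 2 h and 22.5 and 35.5 CPM at 7 h (1.68 ± 0.33), and Aurka, a mitotic kinase, at 103 and 112 CPM at 2 h and 184 and 252 CPM at 7 h (1.02 ± 0.23). The call of Aurka was lost without 2 h replicate 1 (0.97) or 7 h replicate 2 (0.77).

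Of 22 tested p53 targets, 2 were called higher and 3 lower, near the 12.1% and 8.43% of all genes. Cdkn1a, the cell cycle inhibitor p21, was at 28.2 and 42.1 CPM at 2 h and 11.6 and 8.51 CPM at 7 h (log2 fold change -1.81 ± 0.30, edgeR, Benjamini-Hochberg adjusted p = 0.00174), and the polo-like kinase genes Plk3 (-2.43 ± 0.42) and Plk2 (-1.18 ± 0.22) fell too. Ccng2, cyclin G2, was at 9.06 and 3.13 CPM at 2 h and 24.4 and 23 CPM at 7 h (1.94 ± 0.40). Eda2r, a receptor of the TNF family, had 0 counts at 2 h and 12 at 7 h, at least 3.79-fold higher, taking 3 counts over both libraries as the floor. It lost its call without 2 h replicate 1, 2 h replicate 2 or 7 h replicate 2.

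**Figure D4:**
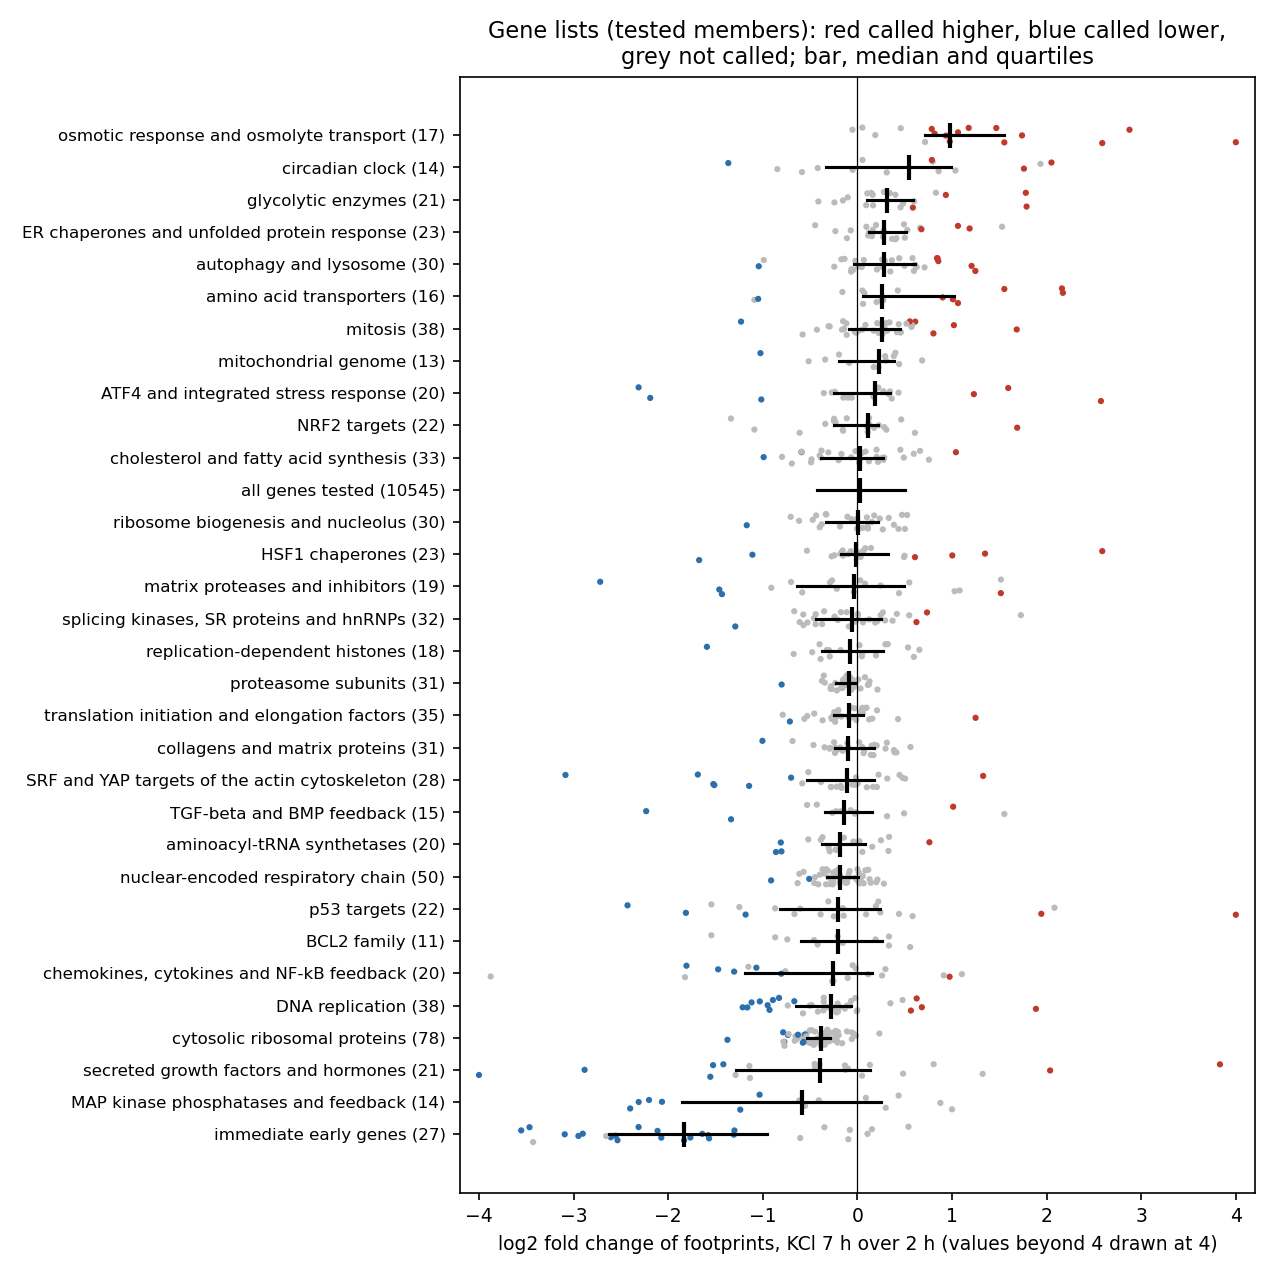
Log2 fold changes of footprints (KCl 7 h over 2 h) for the tested members of 31 gene lists and for all genes, 1 point per gene, red called higher, blue called lower, grey not called, with a bar from the lower to the upper quartile and a tick at the median; values beyond 4 are drawn at 4. The osmotic response list has the highest median (0.98) and the immediate early list the lowest (-1.83).

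RNA from the same conditions was compared for the same times. In RNA, 9120 of 13256 genes were called (68.8%), 4659 higher at 7 h (35.1%) and 4461 lower (33.7%), in 10 libraries of 24441877 to 45244430 counts. Over the 10480 genes in both fits the footprint and RNA log2 fold changes correlated with Pearson's r of 0.657 and a Spearman rank correlation of 0.684 across genes, which are not independent, and 75.1% had the same sign. Of the genes with higher footprints, 1140 had higher RNA (89.1% of them, and 28.5% of the genes with higher RNA). Of those with lower footprints, 750 had lower RNA (84.9%, and 20.2%). The call in RNA went the opposite way in 65 genes, 27 with higher footprints and 38 with lower.

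The ratio of footprints to RNA, called translational efficiency, was tested as an interaction over 20 libraries. It differed between the times in 717 of 10480 genes (6.84%), 407 higher at 7 h (3.88%) and 310 lower (2.96%), and in 298 genes by limma voom with weights set by library kind. Without 1 library the count was 276 to 840, and lower by over 1.5 times without footprint 2 h replicate 2 (280), footprint 7 h replicate 1 (432), RNA 2 h replicate 2 (276), RNA 7 h replicate 1 (300) or RNA 7 h replicate 2 (326). Pabpc1 had one of the clear rises: its RNA was at 1479 and 1653 CPM at 2 h and 1337 and 1295 CPM at 7 h (log2 fold change -0.25), and its ratio changed by 1.54 ± 0.24 (edgeR, Benjamini-Hochberg adjusted p = 0.00155).

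Hipk1, a nuclear kinase, had footprints at 65.1 and 57.7 CPM in the control, 14.4 and 9.73 CPM at 2 h and 49.6 and 49.9 CPM at 7 h, a fall and a return. Its RNA log2 fold change between the times was 0.29, and its ratio rose by 1.78 ± 0.25 (edgeR, Benjamini-Hochberg adjusted p = 0.00143). Mapk6, the atypical MAP kinase ERK3, was at 139 and 151 CPM in the control and 12.7 and 14.9 CPM at 2 h and 66.9 and 26.9 CPM at 7 h, with a ratio change of 2.08 ± 0.38 (edgeR, Benjamini-Hochberg adjusted p = 0.00412). The Wnt receptor gene Fzd5 (2.02) was similar, with an RNA log2 value of -0.78 against a footprint value of 1.22. In footprints Fzd5 lost its call without 2 h replicate 1 (1.35), 2 h replicate 2 (1.09) or 7 h replicate 1 (0.91), and Mapk6 without 7 h replicate 1 (0.96). Dusp7, a phosphatase of ERK, had overlapping footprints (9.39 and 10.8 CPM at 2 h and 10.1 and 9.08 CPM at 7 h) while its RNA was lower (-1.68), and its ratio rose by 1.64. Plcxd2 was of that kind too (1.76), but was called in only 3 of 8 fits with a library left out. The highest fitted ratio change at a mean log2 CPM from 4 upward was that of Ints13 (5.08), whose reads are split with the row of its older symbol, and with both rows summed it was not called (0.70, edgeR, Benjamini-Hochberg adjusted p = 0.079).

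Of the 17 osmotic response genes, 4 were called for a higher ratio and 0 for a lower one, against 3.88% and 2.96% of all genes. Slc12a2 RNA fell (-0.47) while its footprints rose, a ratio change of 1.29 ± 0.24 (edgeR, Benjamini-Hochberg adjusted p = 0.00472), called in all 8 fits with a library left out. Slc5a3 (1.16), Nfat5 (1.04) and Slc38a2 (0.74) were called as well, but in 5, 3 and 3 of those 8 fits. Footprints of Slc38a2 were not called while its RNA fell (-0.66). By contrast, Akr1b3 (0.39), Hspa4l (0.44) and Slc6a12 (-0.83) had no called ratio change, and RNA log2 fold changes of 2.52, 2.19 and 8.37. The last is a fitted value on RNA at 0 and 0.0397 CPM at 2 h and is no bound. Mcl1, a survival protein of the BCL2 family, had an RNA log2 fold change of -1.39 and footprints at 168 and 162 CPM at 2 h and 109 and 132 CPM at 7 h, a ratio change of 0.98 (adjusted p = 0.00412, edgeR with Benjamini-Hochberg adjustment). Gclc, which begins glutathione synthesis, had a ratio change of 0.89. It was the 1 higher of 22 NRF2 targets in footprints (1.69 ± 0.21), against 12.1% of all genes.

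Among the 27 immediate early genes, 6 were called for a lower ratio and 1, Klf4 (1.12), for a higher one, against 2.96% and 3.88% of all genes. Nr4a1 footprints fell further than its RNA (-3.55 against -1.65), a ratio change of -1.87 ± 0.36 (edgeR, Benjamini-Hochberg adjusted p = 0.00481). Junb (-1.38) was called, like Nr4a1, in all 8 fits with a library left out. Arc (-1.77) was called in 6 of them, and Fos (-1.53) and Egr1 (-1.36) in 1. Among genes with a mean log2 CPM from 4 upward, the 6 lowest ratio changes included Trub2, a pseudouridine synthase (-2.58), Als2cl (-2.01) and Gmip, a GTPase-activating protein (-1.99), each called in all 8. In all 3 RNA was higher at 7 h (0.63, 1.21 and 0.74) while footprints fell (-1.98, -0.83 and -1.29). The call of these 3 in footprints was less firm: Trub2 lost it without 2 h replicate 2 (-1.74) or 7 h replicate 2 (-1.82), Als2cl without any 1 of the 4 (-0.74 to -0.93), and Gmip without 2 h replicate 2 (-0.90), 7 h replicate 1 (-1.34) or 2 (-1.22). Ndor1 (-1.89), Btg2 (-2.43) and the histone gene Hist1h2br (-2.20) were the others of the 6. Limma voom called neither Arc, Fos and Btg2 nor, among the higher ratios, Dusp7 and Plcxd2, and Btg2 was called in none of the 8 fits. Hist1h2br has near-identical copies, and histone mRNA mostly lacks the poly(A) tail by which RNA was selected.

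**Figure D5:**
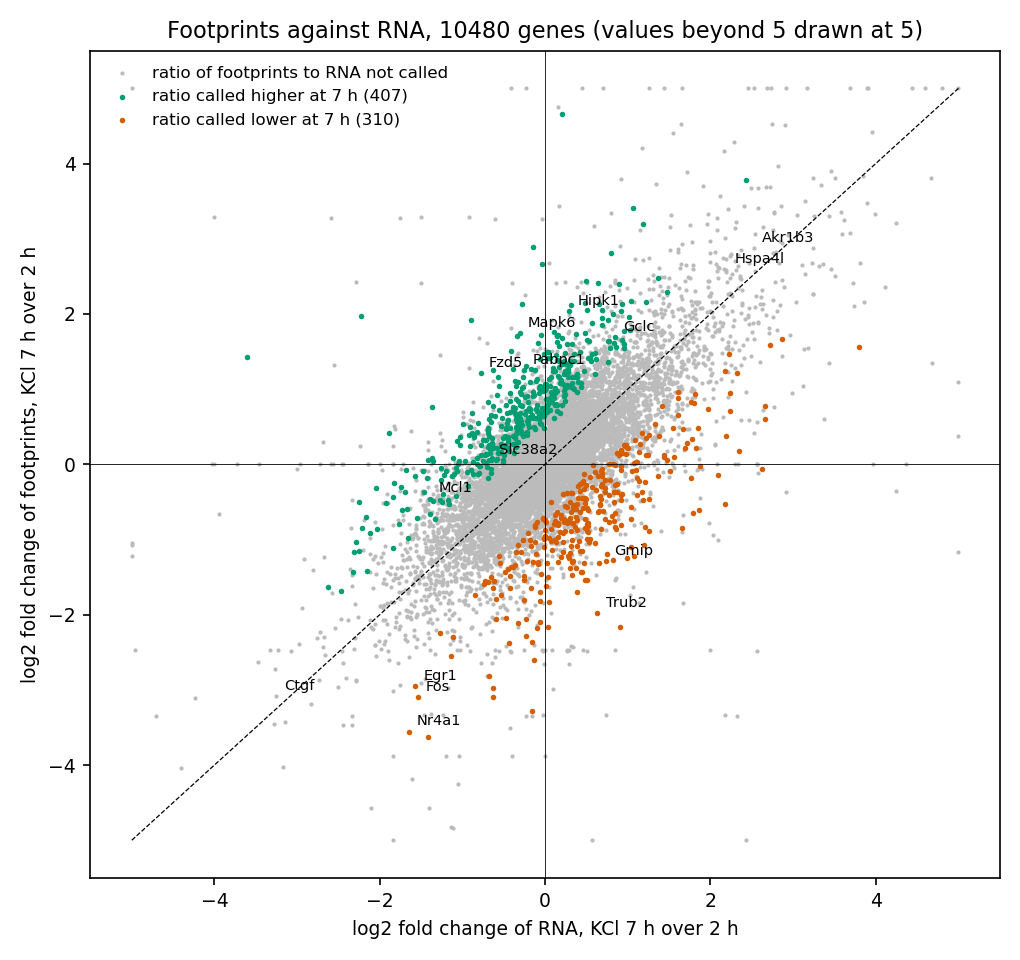
Log2 fold change of footprints (vertical) against that of RNA (horizontal), KCl 7 h over 2 h, for 10480 genes, with 407 genes whose ratio was called higher in green and 310 called lower in orange; the dashed line marks equal change. Pabpc1 and Hipk1 lie above the line, Trub2 and Gmip below it, and Akr1b3, Hspa4l and Ctgf near it.

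The same interval under H2O2 served to ask which changes differ between the stresses. Between 7 h and 2 h of H2O2, 3139 genes were called (29.8%), 1967 higher (18.7%) and 1172 lower (11.1%). The KCl and H2O2 fold changes correlated weakly across genes (Pearson's r 0.157, Spearman rank correlation 0.233, 10545 genes). Of genes higher with KCl, 403 were also higher with H2O2 (31.5% of them, 20.5% of the H2O2 genes) and 85 were lower. Of genes lower with KCl, 191 were lower with H2O2 (21.5%, and 16.3%) and 114 higher. The difference itself was called in 1785 genes (16.9%), 757 with the higher value for KCl (7.18%) and 1028 with the lower (9.75%). The count was 995 to 1804 without 1 library, and lower by over 1.5 times without KCl 2 h replicate 2 (1143), KCl 7 h replicate 1 (1077), H2O2 7 h replicate 1 (1126) or H2O2 7 h replicate 2 (995).

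Osmolyte genes were among those that differed. Akr1b3 had a log2 fold change of 2.88 with KCl and -0.53 with H2O2, a difference of 3.40 ± 0.36 (edgeR, Benjamini-Hochberg adjusted p = 9.11e-05). Aqp1 differed by 3.30, with H2O2 libraries at 433 and 406 CPM at 2 h and 116 and 167 CPM at 7 h. In all, 10 of the 17 osmotic response genes were called for the difference (16.9% of all genes). Over the H2O2 interval 6 of the 17 were called lower and 1 higher, against 11.1% and 18.7% of all genes.

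With H2O2, 17 of the 27 immediate early genes were called lower between the times and 2 higher, against 11.1% and 18.7% of all genes. The difference was called in 7 of the 27, against 16.9% of all genes. Nr4a1 (log2 fold changes -3.55 with KCl and -2.31 with H2O2), Myc (-1.83 and -1.95) and Klf6 (-1.57 and -1.55) were not called for a difference. Fos was: its H2O2 libraries were at 80.7 and 52.4 CPM at 2 h and 59.2 and 86.1 CPM at 7 h, a difference of -3.25 ± 0.46 (edgeR, Benjamini-Hochberg adjusted p = 0.000493). Fosl1 (-3.32) differed as well. Among other large falls, Lmnb2 differed (-3.17), with H2O2 libraries at 46.7 and 39.2 CPM and 41.6 and 42 CPM, while Ctgf fell in both stresses (-3.09 and -2.80). Of the p53 targets over the H2O2 interval, 13 of 22 were called higher and 1 lower (18.7% and 11.1% of all genes), and Cdkn1a differed by -5.51 ± 0.38 (edgeR, Benjamini-Hochberg adjusted p = 6.96e-06).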

How the data were processed

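Ribosome footprints and polyA-selected RNA of NIH3T3 cells were measured in 26 libraries, of which 20 were used: those of the control, KCl and H2O2 groups, 10 for each kind of RNA and 2 per group (heat stress was not analysed here). The labels' protocols name a commercial kit for RNA and an earlier published method for footprints, and the submitters' processing notes name STAR, RSEM, Bowtie and mm10 without versions or roles. Neither the annotation nor a length filter on footprints is stated in these sources. The authors deposited expected counts per gene, all whole numbers and so used unrounded, and TPM values, used for an alternative with log2(TPM + 1) or log2(TPM + 0.5). Left out were 12 columns that no label matched, counted over the footprint tables of expected counts and of TPM together. Of 19941 footprint symbols 19418 were in the RefSeq gene table, and 84 genes had 2 or more rows.

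Genes were tested with edgeR 4.0.16 (R 4.3.3; quasi-likelihood F test, TMM, filterByExpr, Benjamini-Hochberg adjustment over all genes tested, threshold 0.05), with all 10 libraries of a kind in the fit. CPM are counts per 1000000 after TMM scaling. Translational efficiency was an interaction over 20 libraries, and the KCl and H2O2 intervals were compared by the difference of their contrasts. The steps were also run on simulated counts with fewer changed genes than were called here, which does not measure the accuracy of these calls. Named genes were the 12 largest rises and 12 largest falls with non-overlapping libraries and a mean log2 CPM from 4 upward, up to 3 called and 2 most abundant members of each list, and 6 genes at each end of the ratio and difference tests. The remaining osmotic, immediate early and feedback genes, Cdkn1a, Ldha, Cyr61, Atf4, Nupr1, Trib3, Igfbp3, Bdnf, Slc7a6, Slc38a4, Slc1a5, Amotl2, Rrm2, Map1lc3b, Hspa1b, Mcl1, H2-L, Hist1h2bl, Rps6 and Rpl15 were named after their values were seen. The comparison, its gene lists and motifs were chosen with earlier results of these data known. Some list members are counted but not reported here by name. Intervals on counts are 95% exact intervals. Alternatives were DESeq2, RLE factors, other filters, limma on TPM, limma voom, summed rows, a replicate block, a minimum fold change and leaving out each library.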

Additional observations from a re-analysis of the deposited data

Results flagged for a closer look

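Between KCl and H2O2 the change in footprints from 2 h to 7 h differed in 1785 genes, by an edgeR test of the difference itself. At the upper end, Prss35 differed by a log2 value of 6.50, with a rise to 77.4 and 106 CPM at 7 h of KCl and 2.28 and 0.576 CPM at 7 h of H2O2. Slc6a12 differed by 5.52, and this call was lost without H2O2 2 h replicate 2 (4.72). Slc1a3 (4.48), the glutamate transporter, was at 38.7 and 41.3 CPM at 2 h and 7.97 and 8.06 CPM at 7 h of H2O2. Leng8 (3.99), Cxcl5 (3.66) and the chaperone gene Hspa4l (3.66) also rose with KCl and had lower values at 7 h than at 2 h of H2O2.

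At the lower end the differences came with high levels at 7 h of H2O2. The level required for naming was an average over all 10 footprint libraries, which high H2O2 libraries raise. Evpl differed by -8.45, at 147 and 183 CPM at 7 h of H2O2 against 3 counts at 2 h and 1 count at 7 h of KCl. Slc37a2 (-7.49) and the antigen peptide transporter gene Tap1 (-7.21) were called lower in KCl as well. The Notch receptor gene Notch3 (-7.44) was at 269.9 and 258 CPM at 7 h of H2O2, the Notch ligand gene Jag2 (-6.95) at 160.3 and 151 CPM and the drug efflux gene Abcb1a (-6.89) at 147 and 126 CPM. Between the KCl times Evpl (-1.46), Notch3 (-1.6), Jag2 (0.70) and Abcb1a (-0.09) were not called. Notch3 was called lower between the KCl times without KCl 7 h replicate 1, at -5.83. Evpl and Abcb1a lost the call for the difference without KCl 2 h replicate 2 (-7.89 and -5.16), and Jag2 without KCl 2 h replicate 1 (-6.05). Fitted values on so few KCl counts depend on the prior count and are no bound.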

How the results depend on the processing

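Except where given here, the counts of called genes stayed within 1.5 times under the other normalization, filter and model choices. With 2 libraries per group, 1 library decides many of the smaller calls. Footprint calls numbered 1433 with a log2 fold change of at least 1 required, and 845 to 1322 with 1 library left out. Calls for the difference from H2O2 numbered 995 to 1804 with 1 library left out, those for RNA 8248 to 8618. Translational efficiency gave 298 calls by limma voom and 276 to 840 with 1 library left out. DESeq2 called 1724 genes in footprints.

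Adding the replicate number as a replicate block gave 2184 calls in footprints, 1819 for the difference, 9213 in RNA and 789 in translational efficiency, of which 2081, 1707, 9069 and 686 were called without the block. Same-numbered KCl libraries deviated together with r of 0.232. Over all pairs of footprint groups r ran from -0.384 (control with H2O2 2 h) to 0.417 (control with KCl 2 h). The labels give no shared origin for the numbers, so the pairing was not used. The block brought Egr3 (-3.60) and Oxsr1 (0.72) past the threshold.

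Fitted footprint values that changed sign all belong to genes not called. Slc38a2 was -0.00303 with only the KCl libraries fitted. With 1 KCl library left out, Slc38a2 ranged from -0.093 to 0.184, Nr4a2 from -0.171 to 0.447, Klf4 from -0.394 to 0.288, Dusp7 from -0.171 to 0.0271, Ndor1 from -0.537 to 0.30, Hist1h2br from -0.416 to 0.078, Abcb1a from -1.58 to 1.64, Sgk1 from -0.192 to 0.073, Jund from -0.094 to 0.381, Stk39 from -0.0200 to 0.776, Ier3 from -0.285 to 0.10 and Mdm2 from -0.339 to 0.034. The cause was not tested.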

Other observations

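Of 30 tested lysosomal and autophagy genes, 5 were called higher at 7 h of KCl and 1 lower, against 12.1% and 8.43% of all genes, with a median log2 fold change of 0.28, which was 0.17 without 7 h replicate 1. Lamp1, a lysosomal membrane protein, was at 1237 and 836 CPM at 2 h and 2884 and 2038 CPM at 7 h (1.25 ± 0.29), but lost its call without 2 h replicate 2 (0.99) or 7 h replicate 1 (0.97). Atg16l1, which directs LC3 conjugation to membranes, was at 16.8 and 22.6 CPM at 2 h and 45.8 and 45.1 CPM at 7 h (1.21 ± 0.23) and kept it without any 1 of the 4 KCl libraries. Map1lc3b, the LC3 gene, was at 121 and 112 CPM at 2 h and 229.6 and 188 CPM at 7 h (0.84 ± 0.18) and lost its call without 2 h replicate 2 (0.79) or 7 h replicate 1 (0.69). Atg7, the E1-like enzyme of the same conjugation, was the 1 lower, at 28.5 and 28.9 CPM at 2 h and 13.9 and 13.9 CPM at 7 h (-1.04 ± 0.24), and lost its call without 2 h replicate 2, 7 h replicate 1 or 7 h replicate 2. The unfolded protein response sensors Atf6 (81.5 and 56.7 CPM at 2 h and 160.1 and 155 CPM at 7 h, 1.19 ± 0.24) and Ern1 (11.4 and 8.34 CPM at 2 h and 24.4 and 17.3 CPM at 7 h, 1.06 ± 0.32) were higher, among 3 higher and 0 lower of 23 genes, 13.0% of them called. Atf6 lost its call without 2 h replicate 2 (0.95), and Ern1 kept it only without 7 h replicate 2.

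Of 15 feedback genes of TGF-beta and BMP signalling 1 was called higher and 2 lower, against 12.1% and 8.43% of all genes. The lower were Nog, the BMP antagonist noggin, at 19.1 and 17.7 CPM at 2 h and 4.13 and 3.69 CPM at 7 h (-2.23 ± 0.45) and Tgif1 at 106 and 91.4 CPM at 2 h and 38.7 and 39.4 CPM at 7 h (-1.34 ± 0.26). Gnl3, the nucleolar protein nucleostemin, was at 96.9 and 128 CPM at 2 h and 44 and 55.6 CPM at 7 h (-1.17 ± 0.22). It was the 1 called of 30 nucleolar genes, while 20.6% of all genes were called. Hnrnpdl, an RNA-binding protein, was at 144 and 121 CPM at 2 h and 47.3 and 60.4 CPM at 7 h (-1.29 ± 0.21). The clock repressor gene Ciart was at 4.7 and 5.91 CPM at 2 h and 17.3 and 18.7 CPM at 7 h (1.76 ± 0.34). These 5 kept their calls without any 1 of the 4 KCl libraries. Of 33 cholesterol and fatty acid synthesis genes 1 was higher and 2 lower over the KCl interval, 26 were lower over the H2O2 interval, and the difference was called in 19. Of the 13 mitochondrially encoded genes 1 was called lower with KCl and 13 with H2O2, and the difference was called in 11. Over all genes tested 12.1% were called higher and 8.43% lower with KCl, 11.1% lower with H2O2, and 16.9% for the difference. The median log2 fold changes of these 2 lists with H2O2 were -1.09 and -1.78. With KCl their medians changed sign with the library left out, from -0.29 without 7 h replicate 1 to 0.22 without 7 h replicate 2 for the first list, and from -0.29 without 7 h replicate 2 to 0.59 without 7 h replicate 1 for the second.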
